A study of Mus musculus with 2 samples.

Results

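Described here are 10 genes of the glutathione and thioredoxin systems in cells of mouse distal small-intestinal organoids, which are self-renewing epithelial cultures grown from crypts. They are the glutathione transferases Gsta1, Gm3776, Gsta4, Gstm1 and Gstm3, the glutathione peroxidases Gpx1 and Gpx2, the glutamate-cysteine ligase subunits Gclc and Gclm, and the thioredoxin Txn1. They were chosen by name and make up 10 of the 22253 genes of the RNA table, 15258 of which had a count in the cells analysed. All 10 had counts in the analysed cells and all 10 passed the filter on low counts in every comparison across cell classes. The study compared 3 Etv1 mutant organoid cultures with 2 control cultures, and the cells of both groups carried the Neurog3-RFP and Gcg-Venus reporter alleles, which mark endocrine progenitors and glucagon-gene-expressing cells. The cultures were sorted, tagged with hashtag oligos, pooled and read as 1 droplet single-cell RNA library. The nature of the Etv1 allele, the sort gate, the age of the animals and whether each culture came from a separate mouse are not stated in the labels, so p-values measure the spread between these cultures.

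Glutathione is a small thiol peptide that cells use to neutralise peroxides and to tag reactive compounds for export. Its synthesis is limited by glutamate-cysteine ligase, glutathione transferases attach it to electrophiles, and glutathione peroxidases spend it to reduce hydroperoxides. Thioredoxin runs a parallel thiol chain that keeps protein cysteines reduced, and many genes of both systems are targets of the transcription factor NRF2, which binds antioxidant response elements. In the small intestine, alpha-class glutathione transferases are abundant in absorptive enterocytes, whereas Gpx2 is known as the gastrointestinal peroxidase of the crypt base and as a target of Wnt signalling in mouse and human epithelium.

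The promoter sequences of 4 members are shown, read from RefSeq on GRCm38.p6. The first pair is shown because its sequences are nearly identical. The other pair is shown because these were the only matched members with a match to a searched motif. RefSeq promoters were matched for 8 of the 10 members, all but Gsta4 and Gclc, and each line gives the 250 bases before the RefSeq start, 5′ to 3′ on the strand of the gene. Gsta1 lies on the plus strand, with the window at chr9:78230419-78230668, and Gm3776 on the plus strand, with the window at chr9:78256879-78257128. The GENCODE start of Gsta1, 78230656, lies inside its window, so the last bases shown are within that gene model. The windows shared 237 aligned bases, of which 1 differed (99.6% identical). Capitals mark that base.
Gsta1: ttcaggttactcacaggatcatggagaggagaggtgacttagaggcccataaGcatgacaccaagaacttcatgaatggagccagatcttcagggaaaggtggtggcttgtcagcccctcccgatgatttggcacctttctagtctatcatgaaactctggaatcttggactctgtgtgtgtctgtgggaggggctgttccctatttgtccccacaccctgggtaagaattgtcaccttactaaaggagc
Gm3776: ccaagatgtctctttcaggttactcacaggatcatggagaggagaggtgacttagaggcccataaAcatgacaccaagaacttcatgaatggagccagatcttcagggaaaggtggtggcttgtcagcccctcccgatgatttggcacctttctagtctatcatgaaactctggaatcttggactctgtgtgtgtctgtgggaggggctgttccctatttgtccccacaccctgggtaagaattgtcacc
The Gclm window is chr3:122245307-122245556 on the plus strand, and the Gpx2 window is chr12:76795555-76795804 on the minus strand. Capitals mark an antioxidant response element core in Gclm (TGACNNNGC, found on the other strand, first base at -134) and a TCF/LEF core, the kind of site read by Wnt signalling, in Gpx2 (CTTTGTT, first base at -28).
Gclm: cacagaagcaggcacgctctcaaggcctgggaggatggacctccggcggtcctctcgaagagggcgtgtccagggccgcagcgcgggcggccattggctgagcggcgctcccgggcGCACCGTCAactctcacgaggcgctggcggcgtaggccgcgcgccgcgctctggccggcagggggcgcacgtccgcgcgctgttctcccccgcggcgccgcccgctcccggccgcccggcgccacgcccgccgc
Gpx2: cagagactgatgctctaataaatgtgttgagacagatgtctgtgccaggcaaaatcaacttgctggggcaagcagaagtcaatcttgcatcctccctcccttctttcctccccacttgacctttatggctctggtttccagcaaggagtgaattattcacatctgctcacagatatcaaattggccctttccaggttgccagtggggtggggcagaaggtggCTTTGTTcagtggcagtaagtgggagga
Both motifs were searched on both strands of a window of 300 bases, the 250 bases before the start and 50 after it, and no member's window held both. Of 32851 mouse promoters, 12.4% held the antioxidant core and 5.85% the TCF/LEF core. Of the 8 matched members, Gclm alone held the antioxidant core and Gpx2 alone the TCF/LEF core in these windows. Single matches among so few members cannot show an excess over the shares of all promoters. Whether either site acts in these cells was not tested.

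Near-identical transcripts limit what the Gsta1 and Gm3776 values mean. Of the 844 stretches of 31 bases in the Gm3776 transcript, 742 (87.9%) also occurred in Gsta1, and 441 in Gsta2. The quantifier alevin, which the submitters' processing notes name, divides reads that match several genes, and only 40.9% of the Gsta1 values above 0 and 32.9% of the Gm3776 values above 0 were whole numbers to within 0.001, against 96.0% over all genes. Of the other members, Gsta4, Gpx1, Gpx2, Gclc and Txn1 had whole values only and Gstm1, Gstm3 and Gclm at least 98.6%. The split between Gsta1 and Gm3776 is therefore uncertain. A log2 fold change of their sum with Gsta2 is given for the enterocyte-like classes. In the other comparisons both genes are listed apart, and their calls are not independent results.

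The analysed cells numbered 1432, from 282, 281 and 197 cells of the mutant cultures and 323 and 349 cells of the control cultures. Estimated counts summed to between 4193197 and 7254380 per culture, with a median of 20842 to 24126 counts per cell. Etv1 itself was at 3.21, 3.06 and 3.10 counts per 1000000 (CPM) in the mutant cultures, from 20, 20 and 13 counts, against 6.20 and 6.28 CPM in the control cultures, from 45 and 44 counts. Cells were grouped with all pathway genes left out, into stem-like cells (239), 2 cycling-like classes led by S phase genes (178) or mitotic genes (157), a cluster led by Ung that matched no marker list (195), goblet/Paneth-like cells (76), enteroendocrine-like cells (63), enterocyte-like cells led by Mgat4c (136) or by Apoa1 (96), and injury-like cells (27). Of the 12 enterocyte markers, 11 marked the Apoa1-led class, 4 of them among its top 10 genes, whereas 4 marked the Mgat4c-led class and 0 of its top 10 genes were on the list. The injury-like class was marked by 5 injury markers and also by 7 of the enterocyte markers. Among its top 10 genes were 2 injury markers and 0 enterocyte markers. A further 179 and 86 cells formed shallow clusters without a name. Over all cells mutant culture 2 had the highest level of all 10 members. For how many of all genes this culture was the highest was not counted. The summed CPM of the 12 enterocyte markers was 1944, 2752 and 1772 in the mutant cultures and 1842 and 1405 in the control cultures, with 0 markers at 0.

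Most members were higher in enterocyte-like than in stem-like cells. All 10 members differed between the Apoa1-led enterocyte-like class and the stem-like class. Of these, 9 were higher in the Apoa1-led class, Gsta1 and Gm3776 by the widest margins, and Gpx2 was lower. By CPM, 7 members were higher and 1 was lower in every culture. Across all 8398 genes tested, 28.1% were higher and 32.5% lower in this class, so a large part of the transcriptome differed; with scaling by library size alone, 1780 genes were higher and 3660 lower, against 2363 and 2730 with TMM scaling. In the Mgat4c-led class, 8 members were higher and 1, again Gpx2, was lower, against 22.0% higher and 22.5% lower among all genes. The median log2 fold change of the members was 2.43 in the Apoa1-led class, where that of all genes was -0.13, and 1.39 in the Mgat4c-led class, where that of all genes was -0.059. Classes were defined by other genes of the same cells, so each adjusted p (edgeR quasi-likelihood test on sums per culture and class, culture as a block, Benjamini-Hochberg adjustment over all genes) describes how evenly the cultures showed the difference.

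**Figure D1:**
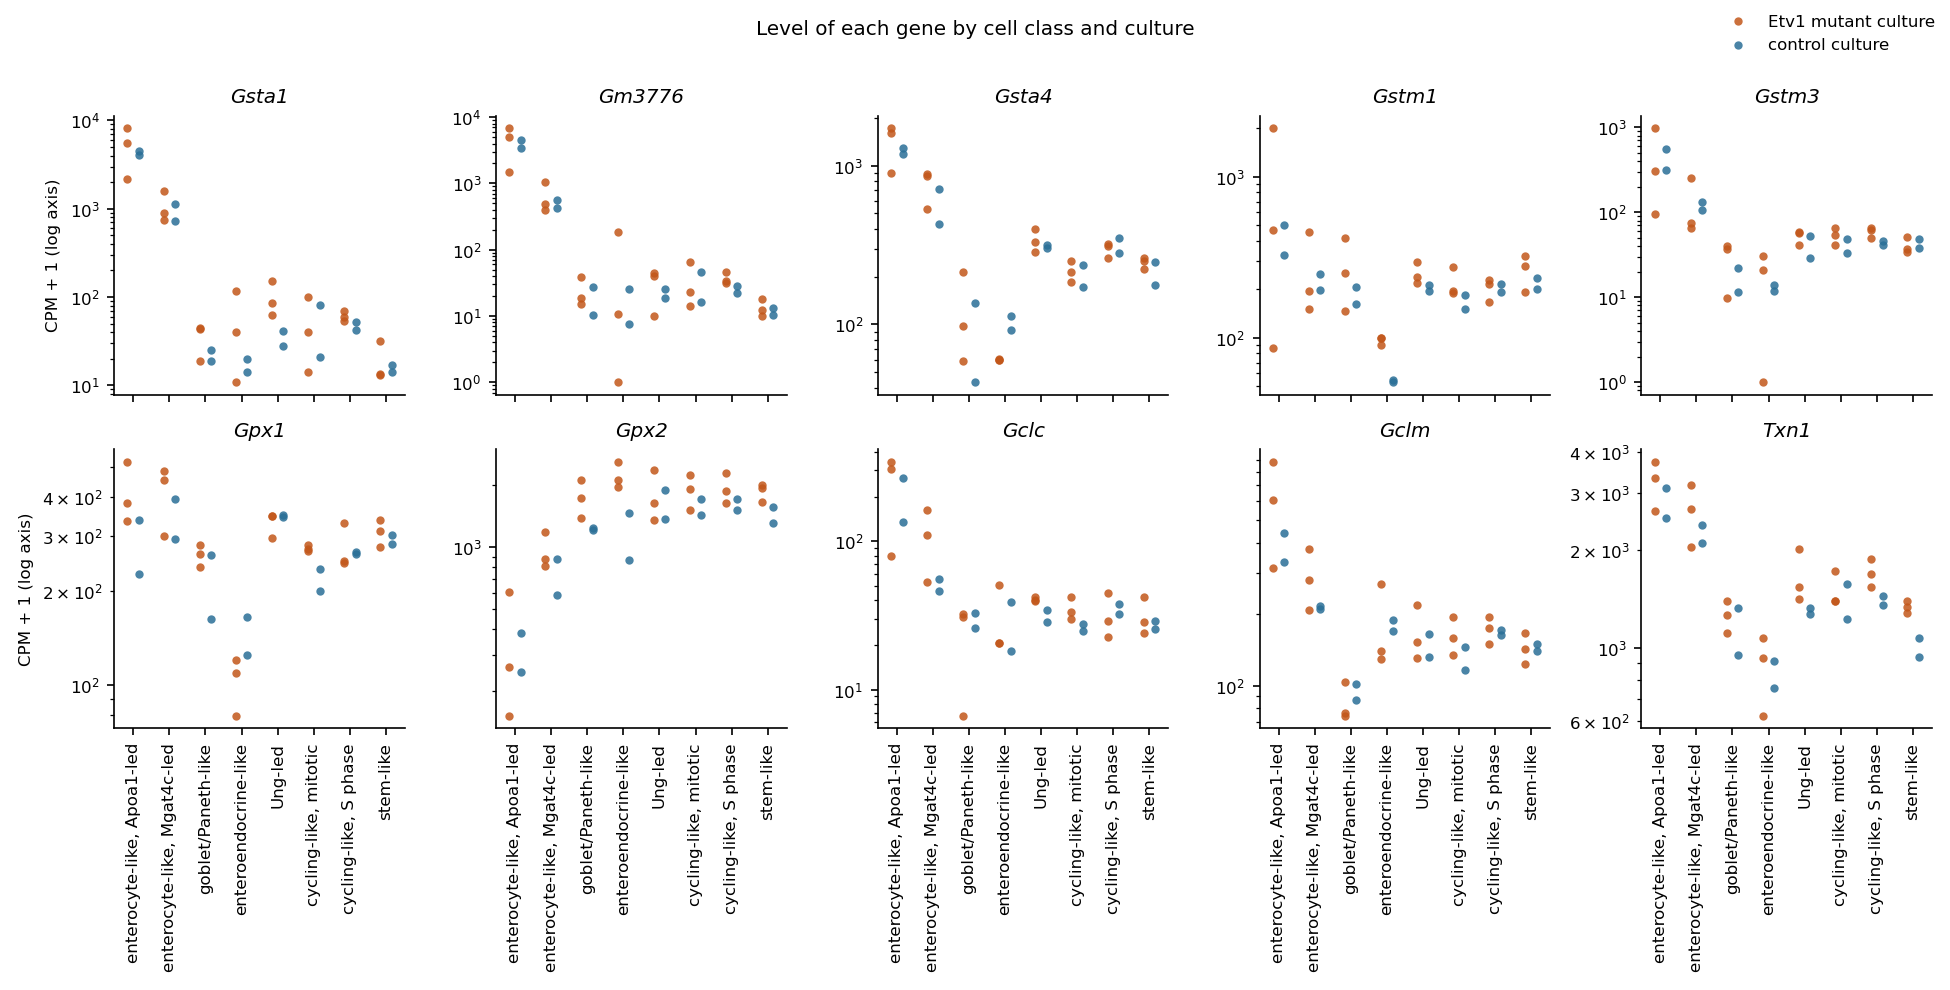
Level of each of the 10 genes in each cell class, 1 panel per gene, as CPM + 1 on a log axis; every point is the sum of the cells of 1 culture, with mutant cultures to the left of control cultures. The 5 Apoa1-led sums of Gsta1 lie between 2198 and 8126 CPM and the 5 stem-like sums between 12.0 and 30.8 CPM, while for Gpx2 the Apoa1-led sums, at 151 to 608 CPM, are the lower ones.

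Gsta1 (chr9:78230656-78242684, plus strand, mm10), an alpha-class transferase, was at 2198, 8126 and 5502 CPM in Apoa1-led cells of the mutant cultures and at 4494 and 4082 CPM in those of the control cultures. In stem-like cells it was at 12.0, 30.8 and 12.4 CPM in the mutant cultures and 16.2 and 13.2 CPM in the control cultures. Every Apoa1-led sum was above every stem-like sum, and mutant culture 2 was the highest in both classes. The log2 fold change was 8.45 ± 0.27 (SE; adjusted p = 1.35e-28; higher in 5 of 5 cultures). The Mgat4c-led class lay between them at 888, 1583 and 746 CPM in the mutant cultures and 1140 and 723 CPM in the control cultures, with a log2 fold change of 6.04 ± 0.26 over stem-like cells (adjusted p = 6.73e-23).

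Gm3776 (chr9:78257129-78269166, plus strand), the neighbour of Gsta1 listed in the files under a predicted-gene name, followed the same order. It was at 1480.5, 6772 and 5070.3 CPM in Apoa1-led cells of the mutant cultures and 4449 and 3475 CPM in those of the control cultures, against 11.3, 17.2 and 8.94 CPM in mutant and 9.18 and 12.3 CPM in control stem-like cells. Mutant culture 1 was the lowest of the 5 Apoa1-led sums for both genes. The log2 fold change of Gm3776 was 8.75 ± 0.29 in Apoa1-led and 5.75 ± 0.29 in Mgat4c-led cells. With Gsta1, Gsta2 and Gm3776 summed, a quantity that does not depend on the split among them, it was 8.50 ± 0.29 in Apoa1-led and 5.83 ± 0.27 in Mgat4c-led cells. Its share of the summed counts of Gsta1 and Gm3776 was 46.3% in Apoa1-led cells and 36.9% in Mgat4c-led cells, shares that depend on how shared reads were divided. Apoa1-led, Mgat4c-led and injury-like cells made up 18.1% of all analysed cells and held 94.3% of all Gsta1 counts and 95.6% of all Gm3776 counts.

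Low Gsta1 counts also appeared outside these classes. After each cell was thinned to 10300 UMIs, all 74 Apoa1-led cells and 103 of 115 Mgat4c-led cells (89.6%, exact binomial 95% interval 82.5 to 94.5) had a Gsta1 UMI, against 36 of 225 stem-like cells (16%, interval 11.5 to 21.5). Before thinning, 99.0% of Apoa1-led cells, 87.5% of Mgat4c-led cells and 19.2% of stem-like cells had a count. Deep enough for this were 74 of 96 Apoa1-led, 115 of 136 Mgat4c-led and 225 of 239 stem-like cells. RNA free in the droplets can give a UMI to any cell, and its level was not measured here. The counts of Gsta1 per count of Apoa1, an apolipoprotein gene of enterocytes, were 2.57 in Apoa1-led cells (1.49 to 3.23 without 1 culture, the lowest without mutant culture 2), 2.16 in stem-like cells, 2.65 in goblet/Paneth-like cells and 2.57 in enteroendocrine-like cells, the last 3 from 38, 16 and 9 Apoa1 counts. The ratio was 11.4 in Mgat4c-led cells (7.12 to 26.9 without 1 culture, the highest without control culture 1), from 334 Apoa1 counts. It was 10.4 in S phase cycling-like cells and 8.26 in the Ung-led cluster (6.50 to 11.7 without 1 culture), from only 31 and 36 Apoa1 counts. These values were all above the ratio of the Apoa1-led class. In mitotic cycling-like cells it was 2.10, but 13.5 without control culture 2, which held 116 of the 135 Apoa1 counts of that class. Whether the low Gsta1 counts outside the enterocyte-like classes came from free RNA was not tested. Intervals cover counting error only.

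Gsta4 (chr9:78182774-78209349, plus strand), an alpha-class transferase that acts on lipid peroxidation aldehydes such as 4-hydroxynonenal, shared 0 stretches of 31 bases with Gsta1. It was at 902, 1594 and 1712 CPM in Apoa1-led cells of the mutant cultures and 1287 and 1187 CPM in those of the control cultures, against 251, 223 and 261 CPM in mutant and 177 and 247 CPM in control stem-like cells. The sums of the classes did not overlap, and the log2 fold change was 2.79 ± 0.17 (adjusted p = 1.11e-18). It was 1.65 ± 0.17 in Mgat4c-led cells (adjusted p = 3.68e-11). Unlike Gsta1, Gsta4 had counts in 92.5% of stem-like cells.

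The mu-class transferases Gstm1 (chr3:108012255-108017973, minus strand) and Gstm3 (chr3:107963696-107969283, minus strand) varied most between cultures among the members in Apoa1-led cells. Gstm1 was at 85.7, 1997 and 464 CPM in Apoa1-led cells of the mutant cultures and 503 and 326 CPM in those of the control cultures, against 192, 319 and 278 CPM in mutant and 233 and 201 CPM in control stem-like cells. Mutant culture 1 thus had less Gstm1 in its Apoa1-led cells than in its stem-like cells, and the other 4 cultures had more. The log2 fold change was 1.53 ± 0.26 (adjusted p = 2.24e-06), and 0.81 ± 0.22 without mutant culture 2 (adjusted p = 0.00163). In that culture 1 Apoa1-led cell held 597 of its Gstm1 counts, 17.8% of the total over all its cells. In Mgat4c-led cells Gstm1 did not pass (log2 fold change 0.042 ± 0.27, adjusted p = 0.918).

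Gstm3 was at 94.9, 969 and 305 CPM in Apoa1-led cells of the mutant cultures and 559 and 315 CPM in those of the control cultures, against 50.6, 33.5 and 35.7 CPM in mutant and 36.7 and 47.4 CPM in control stem-like cells. All 5 Apoa1-led sums were above all 5 stem-like sums, with a wide spread (449 ± 334 CPM, SD, n = 5). The log2 fold change was 3.66 ± 0.27 in Apoa1-led cells (adjusted p = 5.98e-16) and 1.66 ± 0.29 in Mgat4c-led cells (adjusted p = 7.74e-06). Gstm1 and Gstm3 shared 195 stretches of 31 bases, and with the Gstm genes summed the log2 fold change was 1.63 ± 0.23 in Apoa1-led cells.

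Of the glutathione peroxidases, Gpx2 was lower in both enterocyte-like classes, whereas Gpx1 differed little. Gpx2 (chr12:76792333-76795554, minus strand), which reduces hydroperoxides in epithelial cells, was at 151, 608 and 263 CPM in Apoa1-led cells of the mutant cultures and 381 and 246 CPM in those of the control cultures. In stem-like cells it was at 1660, 2011 and 1948 CPM in the mutant cultures and 1560.3 and 1316 CPM in the control cultures. Every stem-like sum was above every Apoa1-led sum, and the log2 fold change was -2.09 ± 0.15 (adjusted p = 4.99e-16; lower in 5 of 5 cultures). Mgat4c-led cells lay between, at 815, 1185 and 872 CPM in the mutant cultures and 874 and 585 CPM in the control cultures, a log2 fold change of -0.89 ± 0.14 (adjusted p = 1.17e-06; lower in 5 of 5 cultures). Of all Gpx2 counts, 11.5% came from the 18.1% of cells that were Apoa1-led, Mgat4c-led or injury-like.

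Gpx1 (chr9:108338903-108340343, plus strand), the widely expressed cytosolic peroxidase, differed least. It was at 380.5, 516 and 333 CPM in Apoa1-led cells of the mutant cultures and 337 and 226 CPM in those of the control cultures, against 274, 310 and 337 CPM in mutant and 299.8 and 282 CPM in control stem-like cells. These sums overlapped. The log2 fold change was 0.55 ± 0.13 with TMM scaling (adjusted p = 4.20e-04), but 0.26 ± 0.13 with scaling by library size alone (adjusted p = 0.0902), under which the median of all genes was -0.43. In Mgat4c-led cells the log2 fold change was 0.45 ± 0.13 (adjusted p = 0.00366).

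Both subunits of glutamate-cysteine ligase, which makes the first intermediate of glutathione, were higher in both enterocyte-like classes. The catalytic subunit Gclc (chr9:77754535-77794485, plus strand) was at 78.1, 341 and 305 CPM in Apoa1-led cells of the mutant cultures and 264 and 134 CPM in those of the control cultures, against 23.1, 40.8 and 27.7 CPM in mutant and 24.5 and 28.1 CPM in control stem-like cells. The modifier subunit Gclm (chr3:122245557-122270732, plus strand), whose promoter is shown above, was at 312.4, 879 and 605 CPM in Apoa1-led cells of the mutant cultures and 442 and 332 CPM in those of the control cultures, against 123, 142 and 165 CPM in mutant and 149 and 138 CPM in control stem-like cells. For both subunits the lowest Apoa1-led sum, in mutant culture 1, exceeded the highest stem-like sum. The log2 fold changes were 3.20 ± 0.22 for Gclc (adjusted p = 7.01e-17) and 2.07 ± 0.15 for Gclm (adjusted p = 2.52e-16) in Apoa1-led cells. In Mgat4c-led cells they were 1.64 ± 0.24 for Gclc and 0.92 ± 0.15 for Gclm.

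Txn1 (chr4:57943373-57956411, minus strand), the cytosolic thioredoxin, was at 2635, 3723 and 3316 CPM in Apoa1-led cells of the mutant cultures and 3106 and 2499 CPM in those of the control cultures. In stem-like cells it was at 1336, 1393 and 1286 CPM in the mutant cultures and 939.7 and 1076 CPM in the control cultures. The classes did not overlap, and the log2 fold change of 1.62 ± 0.099 (adjusted p = 6.75e-19) had the smallest standard error among the members. In Mgat4c-led cells, at 2041, 3155 and 2675 CPM in the mutant cultures and 2382 and 2107 CPM in the control cultures, it was 1.13 ± 0.097 (adjusted p = 2.21e-13).

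**Figure D2:**
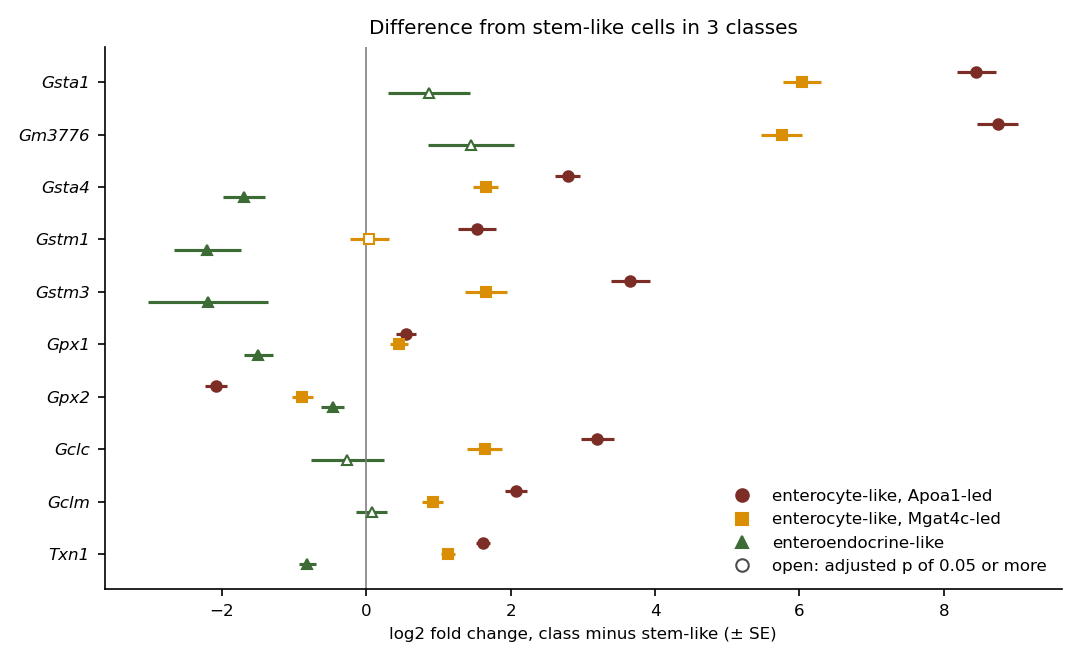
Log2 fold change against stem-like cells (x axis) of each member in Apoa1-led enterocyte-like, Mgat4c-led enterocyte-like and enteroendocrine-like cells, with SE bars; open symbols did not pass at an adjusted p of 0.05. Gsta1 and Gm3776 stand far to the right at 8.45 and 8.75 in Apoa1-led cells, Gpx2 is the only member to the left of 0 in both enterocyte-like classes, and 7 of 10 enteroendocrine-like values lie to the left of 0.

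In enteroendocrine-like cells, 6 of the 10 members were lower than in stem-like cells and 0 higher, where 15% of all genes were lower and 15.1% higher (686 lower and 2129 higher with scaling by library size alone, against 1257 and 1266 with TMM). Gstm1 was at 98.3, 89.7 and 98.4 CPM in enteroendocrine-like cells of the mutant cultures and 51.9 and 53.9 CPM in those of the control cultures, below every stem-like sum (log2 fold change -2.20 ± 0.47, adjusted p = 2.10e-04). Gpx1 was at 108, 119.6 and 78.7 CPM in the mutant cultures and 164 and 124 CPM in the control cultures, also below every stem-like sum (-1.497 ± 0.20, adjusted p = 5.73e-08). Gsta4 (-1.69 ± 0.29, adjusted p = 8.01e-06) and Txn1 (-0.82 ± 0.12, adjusted p = 1.81e-07) were lower as well. Mutant culture 1 had 7 such cells, under the minimum of 10, so its sum was left out of this fit, which had 4 cultures for the class. At a finer clustering 9 of the 63 cells formed a cluster with 6 tuft cell markers, such as Dclk1 and Trpm5, so the class also held tuft-like cells, 0, 1 and 2 in the mutant cultures and 2 and 4 in the control cultures. Without these cells 5 members were lower, all but Gpx2, with 1087 of all genes higher and 1319 lower.

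The remaining enteroendocrine-like calls were weak. Gstm3 was at 29.5, 19.9 and 0.0 CPM in the mutant cultures and 12.98 and 10.8 CPM in the control cultures (log2 fold change -2.19 ± 0.83, adjusted p = 0.0396), and 6 alternatives ended the call, among them leaving out mutant culture 3 (adjusted p = 0.0975), control culture 1 (0.0961) or control culture 2 (0.117). Gpx2 passed as lower (-0.47 ± 0.16, adjusted p = 0.0213), but by CPM it was higher in enteroendocrine-like than in stem-like cells in 3 of the 4 cultures of the fit. With scaling by library size alone the difference was -0.14 ± 0.15 (adjusted p = 0.514), without control culture 1 it was -0.34 ± 0.16 (adjusted p = 0.121) and without the tuft-like cells -0.39 ± 0.17 (adjusted p = 0.0707). The fitted value stayed below 0 in each of the alternatives run, but the call did not hold in all of them. Scaling by library size alone moved the median of all genes to 0.34 in this class, against 0.012 with TMM. The direction of Gstm1, Gsta4, Gpx1, Txn1 and Gstm3 was the same under both. The class was also the shallowest of the named ones, with a median of 9535 counts per cell. Gclc (-0.26 ± 0.50) and Gclm (0.073 ± 0.22) did not pass.

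The crypt classes differed from stem-like cells in few members. In S phase cycling-like cells Gsta1 (log2 fold change 1.73 ± 0.31), Gm3776 (1.48 ± 0.37) and Txn1 (0.38 ± 0.096) were higher, 3 of 10, where 13.2% of all genes were higher and 12.7% lower. In mitotic cycling-like cells Gsta1 (1.61 ± 0.31), Gm3776 (1.43 ± 0.37) and Txn1 (0.27 ± 0.096) were higher, where 11.2% of all genes were higher and 10.3% lower. In the Ung-led cluster Gsta1 (2.05 ± 0.31), Gm3776 (1.28 ± 0.38), Gsta4 (0.53 ± 0.17) and Txn1 (0.36 ± 0.096) were higher, where 9.36% of all genes were higher and 9.42% lower. The Gsta1 and Gm3776 sums in these 3 classes ran from 8.88 to 151 CPM. Both genes share most of their transcript sequence, so their calls are not independent. With scaling by library size alone, 595 genes were higher and 928 lower in the Ung-led cluster, against 786 and 791 with TMM. Without the culture block, 1 member rather than 4 passed there. Leaving out 1 culture ended the call of Gm3776 (without mutant culture 3, adjusted p = 0.0909) and of Gsta4 (without control culture 1, adjusted p = 0.0799) in the Ung-led cluster and that of Txn1 in mitotic cells (without mutant culture 2, adjusted p = 0.0787; without control culture 1, adjusted p = 0.345).

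Goblet/Paneth-like cells, in which 11% of all genes were higher and 8.48% lower than in stem-like cells, differed in 1 of the 10 members. Gsta4 was at 57.7, 96.1 and 214 CPM in the mutant cultures and 42.2 and 136 CPM in the control cultures, with a log2 fold change of -0.93 ± 0.23 (adjusted p = 0.00230). Mutant culture 2, with 9 goblet/Paneth-like cells, was left out of this fit. Over all genes 793 were higher and 1091 lower with scaling by library size alone, against 927 and 712 with TMM. The call ended when pathway genes were kept in the clustering (adjusted p = 0.0689) and at a finer clustering (adjusted p = 0.0585).

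Injury-like cells, led by genes such as Sprr1a, Ly6d and Anxa1, numbered 8, 5 and 1 in the mutant cultures and 6 and 7 in the control cultures, so they were described without a test. In the 4 cultures with at least 5 such cells Gsta1 was at 2711 and 3009 CPM in the mutant cultures and 2745 and 2752 CPM in the control cultures. Gsta4 was at 1484 and 1570.4 CPM in those mutant cultures and 1901 and 1341 CPM in the control cultures. Both genes thus overlapped the range of their Apoa1-led sums. Gpx2 ranged from 291 to 3474 CPM and Gstm3 from 6.06 to 140.3 CPM over the 4 sums, so neither showed 1 level in this class.

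Levels varied widely from cell to cell within the enterocyte-like classes. The sum of Gsta1, Gsta2 and Gm3776 had a median of 86.2 per 10000 counts in Apoa1-led cells and 9.43 in Mgat4c-led cells, against 0.0 in stem-like cells, and ran from 0.0 to 358 in Apoa1-led cells. Gpx2 had a median of 1.86 per 10000 counts in Apoa1-led, 6.35 in Mgat4c-led and 15.2 in stem-like cells. Gstm1 was spread more unevenly: its median was 2.05 per 10000 counts in Apoa1-led cells and 2.18 in stem-like cells, whereas its 90th percentile was 20.4 in Apoa1-led cells and 4.54 in stem-like cells. High Gstm1 values in the Apoa1-led class thus lay in a minority of its pooled cells, and 78 of the 96 Apoa1-led cells had a Gstm1 count. These percentiles pool the cells of all cultures, whose Apoa1-led Gstm1 sums ran from 85.7 CPM in mutant culture 1 to 1997 CPM in mutant culture 2. They therefore do not separate spread among cells from spread between cultures.

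**Figure D3:**
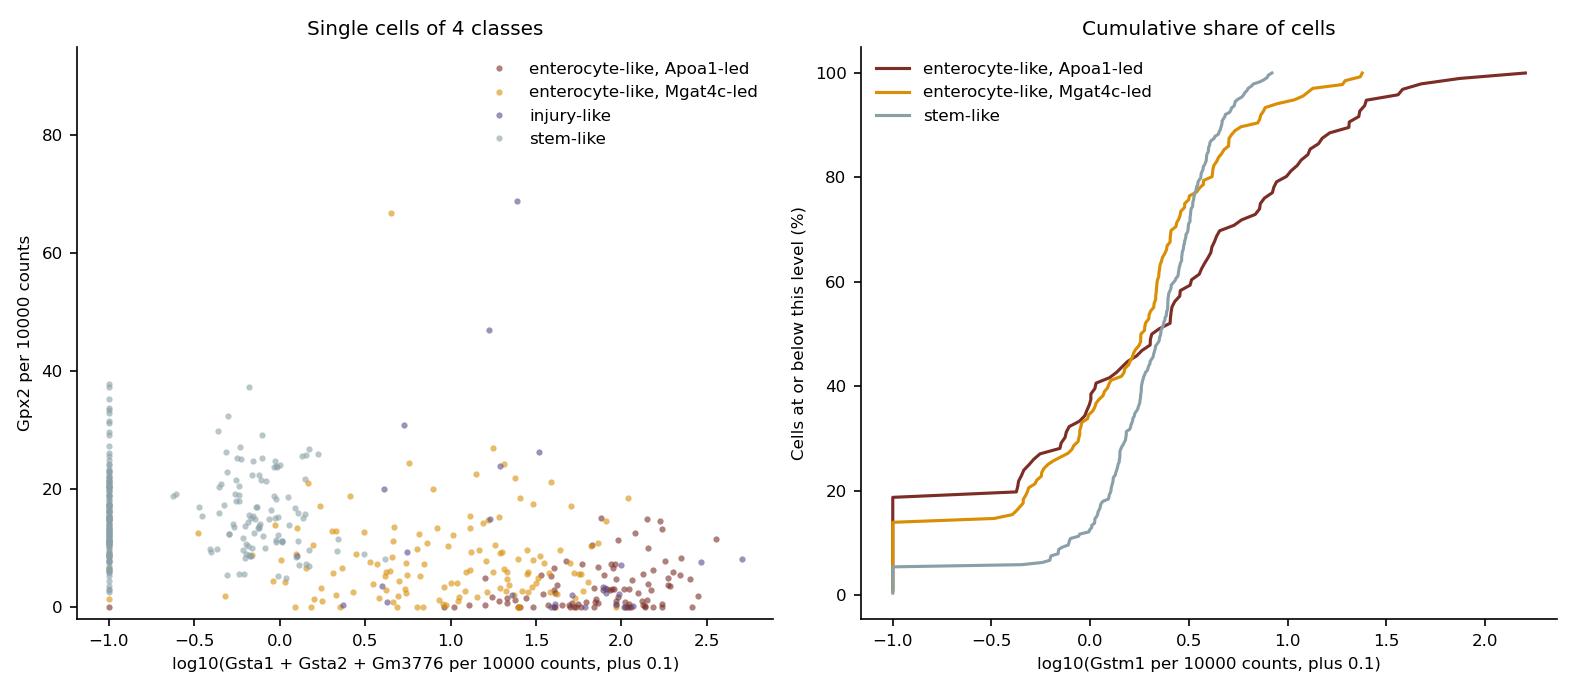
Left, Gpx2 per 10000 counts (y axis) against log10 of the sum of Gsta1, Gsta2 and Gm3776 per 10000 counts plus 0.1 (x axis) in single cells of 4 classes. Right, cumulative share of cells (y axis) by Gstm1 level per 10000 counts (x axis) in Apoa1-led, Mgat4c-led and stem-like cells; the Apoa1-led curve reaches 90% at 20.4 and the stem-like curve at 4.54.

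Within the enterocyte-like classes the transferases varied together. Over the 96 Apoa1-led cells the summed alpha-class level (Gsta1, Gsta2 and Gm3776) had a Pearson r of 0.71 with Gsta4, 0.62 with Gstm1, 0.58 with Gstm3 and 0.53 with Gclm, and Gstm1 with Gstm3 had 0.78. With Gpx2 the alpha-class sum had an r of 0.36 in the Apoa1-led cells. Over the 136 Mgat4c-led cells the alpha-class sum had an r of 0.54 with Gsta4, 0.53 with Gstm3 and 0.33 with Gstm1, and of 0.020 with Gpx2. Over the 239 stem-like cells none of the same pairs exceeded 0.12. Only 40.6% of these cells had a count of the alpha-class sum, so its low r there cannot show that the genes varied apart. Across the 38 sums per culture and class, log2 CPM of Gsta1 had an r of 0.97 with Gm3776, 0.90 with Gclc, 0.88 with Txn1 and -0.75 with Gpx2. These are descriptions over points that share cultures, classes and 1 library, and the cells also share depth.

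The genes most like the most abundant members across these 38 sums, out of 9703 compared, were as follows. Txn1 was nearest to Serpinb6a (r = 0.94), Mgat4c (0.93) and Reg3g (0.93). Gpx2 was nearest to Exosc1, Hnrnpu and Trp53, each at 0.93. Gsta1 was nearest to Gm3776 (0.97), Agpat2 (0.96) and Mt4 (0.96), and Gm3776 to Gsta1 (0.97), Gm21885 (0.96) and Gm10639 (0.95), of which Gm10639, named here after its values were seen, shared 444 stretches of 31 bases with Gm3776.

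Most other tested genes of the pathway were higher in Apoa1-led cells, apart from the thioredoxin and glutaredoxin list. In Apoa1-led cells against stem-like cells, 12 of 17 tested other glutathione transferases were higher and 2 lower, including the microsomal transferases Mgst3 (log2 fold change 2.41) and Mgst1 (2.71) and, on the lower side, Gstm5 (-1.56) and Gstt2 (-1.10). All 12 tested genes of glutathione supply and turnover were higher, among them Ggt1 (7.49), which splits extracellular glutathione, and the peptidase Anpep (6.41). Of 10 other peroxidases and dismutases 7 were higher, with Gpx4 (2.44), the phospholipid hydroperoxide peroxidase, and Prdx5 (2.67) first, and 3 lower, with Prdx4 (-3.71), the peroxiredoxin of the endoplasmic reticulum, and Prdx2 (-0.78). Of 23 other NRF2 targets and regulators 20 were higher, led by the ferritin gene Fth1 (2.32) and the quinone reductase Nqo1 (4.20), and 1, the exporter Abcc4 (-2.77), was lower. The median log2 fold changes of these 4 lists lay between 0.86 and 1.79, where that of all genes was -0.13.

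In the list of other thioredoxin and glutaredoxin genes, 6 of 17 were higher and 6 lower in Apoa1-led cells, near the 28.1% and 32.5% of all genes, with a median log2 fold change of 0.014. Txndc17 (1.72) and Srxn1 (3.53), the sulfiredoxin that restores oxidised peroxiredoxins, were higher, whereas Txndc5 (-1.58), a disulfide isomerase of the endoplasmic reticulum, and the mitochondrial thioredoxin Txn2 (-0.67) were lower. In Mgat4c-led cells 5 were higher and 4 lower, near the 22.0% and 22.5% of all genes.

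In enteroendocrine-like cells, where 15% of all genes were lower and 15.1% higher with TMM scaling, 10 of 17 other transferases were lower and 1 higher (Mgst3, 0.74), and 4 of 10 other peroxidases and dismutases were lower and 1 higher (Prdx5, 1.203). Of the NRF2 list 8 of 23 were lower and 3 higher, and of the thioredoxin and glutaredoxin list 6 of 17 were lower and 3 higher. The glutathione supply list had 3 of 12 lower and 2 higher, Anpep (4.601) and Hagh (1.04), with a median log2 fold change of 0.035, where that of all genes was 0.012.

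Over all cells no member passed between genotypes. All 10 log2 fold changes of mutant minus control cultures were above 0, from 0.19 to 0.69, with a median of 0.43, where that of all genes was 0.0047, but none passed (adjusted p = 0.9997 for each) and none had an unadjusted p under 0.05. Of the 11061 genes tested, 1 (0.00904%) passed with edgeR, 337 had an unadjusted p under 0.05, and DESeq2 called 6. Gsta1 was at 361, 1386 and 475 CPM in the mutant cultures, against 564 and 349 CPM in the control cultures (log2 fold change 0.69 ± 0.56). Mutant culture 2 was the highest and a control culture second, so the groups overlapped. Without mutant culture 2, 5 of the 10 members were below 0, Gsta1 at -0.14, Gm3776 at -0.34, Gstm1 at -0.086, Gstm3 at -0.33 and Gclc at -0.044. In a sum over all cells, fewer cells of a type and less RNA per cell cannot be told apart.

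Mutant culture 2 also had the highest share of Apoa1-led cells and the highest summed enterocyte markers, given above. The share was 6.74%, 10.3% and 5.08% of the cells of the mutant cultures and 6.50% and 4.87% of those of the control cultures. Among the other 4 cultures, mutant culture 1 had the highest share but less Gsta1 than mutant culture 3 and control culture 1. Within single classes, mutant culture 2 was highest for 9 of 10 members in Apoa1-led, Mgat4c-led and S phase cycling-like cells. It was highest for 8 in mitotic cycling-like cells, 7 in the Ung-led cluster and 6 in stem-like cells. In enteroendocrine-like cells it was highest for 4, and in goblet/Paneth-like cells for 3. The share of all genes that were highest in this culture was not counted in any class, so an excess particular to the members is not shown. The part of the class shares in the result over all cells was not tested. Among the other members, Gm3776 was at 233, 1100.3 and 373 CPM in the mutant cultures and 457 and 300.01 CPM in the control cultures (0.58 ± 0.60). Txn1 was at 1569, 2179 and 1712 CPM in the mutant cultures and 1569.5 and 1381 CPM in the control cultures (0.30 ± 0.15), and mutant culture 1 and control culture 1 were at about the same level. Gpx1, at 295, 351 and 326 CPM in the mutant cultures and 294 and 271 CPM in the control cultures (0.19 ± 0.10), was the 1 member of 10 whose groups did not overlap, where 9.12% of all genes were higher in the mutant cultures without overlap. Gstm1, at 185, 514 and 232 CPM in the mutant cultures and 225 and 213 CPM in the control cultures (0.50 ± 0.40), showed its excess in mutant culture 2. Of the 5 other lists none had a gene that passed over all cells by edgeR; unadjusted p was under 0.05 for 2 other transferases, 2 genes of glutathione supply, 0 peroxidases and dismutases, 1 thioredoxin-list gene and 1 NRF2-list gene. The smallest p-values were those of Ephx1 (0.76, unadjusted p = 0.00195) and Slc7a11, the cystine importer (-0.67, unadjusted p = 0.00699).

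**Figure D4:**
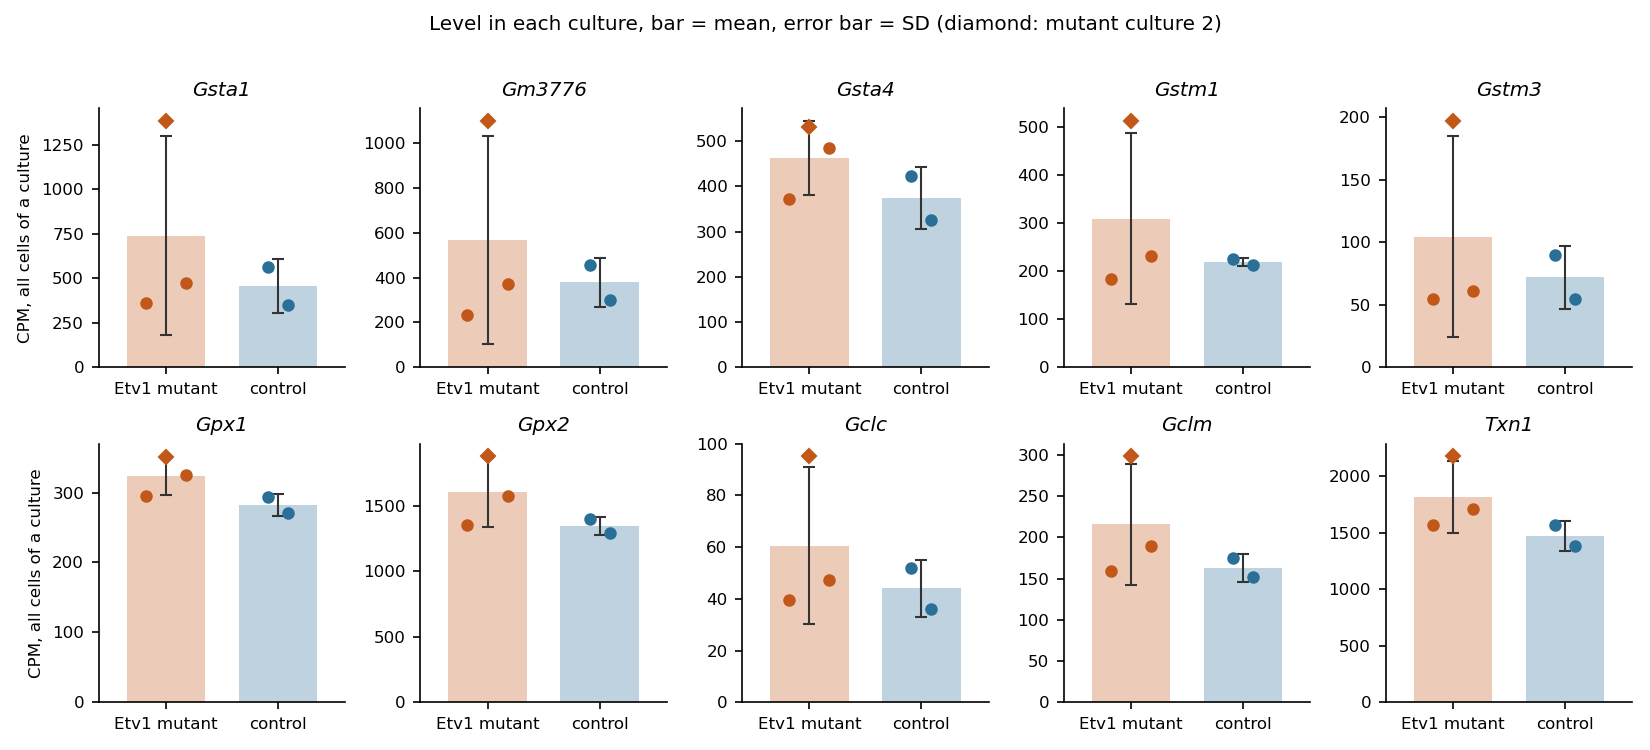
CPM of each member summed over all cells of a culture (y axis), mutant cultures left and control cultures right, with the mean as a bar and the SD as an error bar; the diamond is mutant culture 2. For all 10 genes the diamond is the highest point, and the Gpx1 values of the 3 mutant cultures, 295 to 351 CPM, are the only ones wholly above those of the control cultures.

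Within classes no member passed between genotypes either, by edgeR or DESeq2. In stem-like cells, where 2 of 7620 genes (0.0262%) passed, Txn1 had a log2 fold change of 0.37 ± 0.084 (unadjusted p = 3.21e-04, adjusted p = 0.349). With the stem-like values given above, its 3 mutant cultures lay above its 2 control cultures. Gpx2 was at 0.34 ± 0.093 (adjusted p = 0.460), again without overlap. These 2 of 10 members had mutant sums wholly above control sums, where 13.4% of all genes did. Without mutant culture 1, Gpx2 passed (0.42 ± 0.077, adjusted p = 0.0296).

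In cycling-like cells, where 0.0216% of all genes passed, Gstm3 was at 0.50 ± 0.17, Txn1 at 0.22 ± 0.091 and Gpx2 at 0.26 ± 0.12, each with an unadjusted p under 0.05 and an adjusted p of 0.999. In the Ung-led cluster, where 0.0141% of all genes passed, Gsta1 was at 62.1, 151 and 85.6 CPM in the mutant cultures and 40.5 and 27.2 CPM in the control cultures (1.497 ± 0.31, unadjusted p = 1.81e-04, adjusted p = 0.543). The groups did not overlap, but how many of all genes had no overlap in this cluster was not counted. Gm3776, which shares most of its reads, was at 8.88, 43.7 and 39.7 CPM in those mutant cells and 17.6 and 24.6 CPM in the control cells and overlapped. Txn1 was at 0.32 ± 0.13 there (adjusted p = 0.9995).

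In enterocyte-like cells, both classes summed, the Gsta1 log2 fold change was 0.23 ± 0.39, that of Gstm1 0.84 ± 0.71 and that of Gclm 0.54 ± 0.29. Here 0.0% of 6897 genes passed with edgeR, 191 had an unadjusted p under 0.05, none of them a member, and DESeq2 called 1. Among the other lists, Hmox1 of the NRF2 list had the smallest p with edgeR, at a log2 fold change of 3.30 ± 0.47. It did not pass (unadjusted p = 3.90e-05, adjusted p = 0.269). In enteroendocrine-like cells, where 0.0515% of 1942 genes passed, 5 of the 10 members met the filter on low counts. Gpx2 was at 2596, 2113 and 1958 CPM in the mutant cultures and 869 and 1467 CPM in the control cultures, without overlap (0.90 ± 0.31, unadjusted p = 0.0157, adjusted p = 0.943). These sums rest on 7, 10 and 10 mutant cells and 18 and 18 control cells. How many of all genes had no overlap in this class was not counted.

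Whether a genotype difference differed between enterocyte-like and stem-like cells was tested with an interaction term, with culture as a block. No member passed, and 0.0% of 8293 genes did, with 325 at an unadjusted p under 0.05. The interaction of Gclm was the nearest, at 0.52 ± 0.26 (unadjusted p = 0.0615), and those of Gsta1 (-0.058 ± 0.29), Gpx2 (0.0064 ± 0.19) and Txn1 (-0.19 ± 0.18) lay within about their standard errors. Among the other lists the interaction of Hmox1 had the smallest p, at 4.62 ± 1.21 (unadjusted p = 9.12e-04, adjusted p = 0.882).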

How the data were processed

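The RNA file held estimated counts per gene and barcode, deposited by the authors without normalization as far as the values show. The hashtag file held whole-number counts of 5 hashtags over the same 3409 barcodes, also deposited by the authors. The submitters' processing notes name Salmon 1.4.0, Cell Ranger 6.1.0, Seurat 4.3.0, alevin and, as build, mm10. The sources used here do not say which step each tool served. Hashtags were tied to groups by the labels, which list them per group, and culture numbers follow that list and only name the cultures.

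Barcodes were assigned with HTODemux (Seurat 5.3.0, R 4.3.3, positive quantile 0.99), which gave 1814 single-culture barcodes, 273 with several hashtags, removed as doublets, and 1322 with none. Doublets within a culture may remain. Cells needed at least 500 detected genes and at most 25% mitochondrial counts. They were clustered with scanpy 1.11.5 (Python 3.11.15; 10000 counts per cell, 2000 variable genes, 30 components, 15 neighbours, Leiden resolution 0.8) with all 102 pathway genes left out, 101 of which are in the table. A class took its name from at least 3 markers with a log2 fold of 0.5 in 25% of its cells. The names are rebuilt from these data.

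Estimated counts were summed per culture, or per culture and class, and rounded to whole numbers. Cultures, not cells, were the replicates. Sums were tested across all genes with edgeR 4.0.16 (quasi-likelihood, TMM scaling, filterByExpr, Benjamini-Hochberg adjustment, threshold 0.05); log2 fold changes are given with their SE. Class fits used sums of at least 10 cells, at least 4 cultures per class and culture as a block. Tests between genotypes within a class needed 20 cells in every culture, with both enterocyte-like classes and both cycling-like classes pooled, apart from the enteroendocrine-like class. CPM is counts per 1000000 counts of the summed cells. On simulated data with 100 genes changed by a log2 fold of 2, both designs recovered 100%. At a log2 fold of 1 the genotype design recovered 44% and the class design 76%. Among unchanged genes there were 7 false calls in the genotype design and 10 in the class design. The simulation gave every gene the same dispersion and changed only well-counted genes. Recovery can therefore be lower for genes that vary more between cultures, such as Gsta1.

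Alternatives were RLE size factors, DESeq2 1.42.0, library size alone, no filter, other clusterings, no block, summed paralogs, leaving out tuft-like cells and leaving out each culture. The genes, pathway lists and tests were chosen with earlier results of these data known. The rule for naming covered all 10 genes in each comparison and up to 2 genes per direction with the smallest p of each other list. The text gives only a part of these, mainly for comparisons within classes between genotypes. It names the 3 most alike genes for the 4 members with the most counts. Gene positions were taken from GENCODE vM21 (mm10).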

Additional observations from a re-analysis of the deposited data

Results flagged for a closer look

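A signal lay outside the comparisons, in the 1293 barcodes that passed the cell filters but were assigned to no single culture. Gsta1 and Gm3776 summed to 2720.0 CPM there, against 1140.0 CPM in the assigned cells. Gstm1 was at 544 CPM and Gstm3 at 239 CPM in these barcodes, against 276 and 93.3 CPM in assigned cells, whereas Gpx2 was at 1491 CPM against 1488 CPM. Their genotype is not known, and they entered no test.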

How the results depend on the processing

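Of the counts of members passing per comparison, 125 values under alternatives were on the same side and within 1.5 times, 5 were higher and 1 was lower. Leaving out 1 culture moved the count for genotype in stem-like cells between 0 and 1, the 1 being without mutant culture 1, and that for goblet/Paneth-like cells between 1 and 2. The goblet/Paneth-like count, 1 as reported, was 3 with no filter, 3 at Leiden resolution 0.5 and 2 with library size only, and the Ung-led count, 4 as reported, was 1 without the culture block. Of single-gene values, 668 were on the same side, 24 lost and 7 gained a call, and 16 changed sign, none of them a value that had passed. Without mutant culture 2 the signs over all cells changed for Gsta1 (-0.14, highest without 1 culture 1.10), Gm3776 (-0.34, highest 0.96), Gstm1 (-0.086, highest 0.77), Gstm3 (-0.33, highest 0.97) and Gclc (-0.044, highest 0.77). In enteroendocrine-like cells Gsta1 was -0.21 without the tuft-like cells, an alternative chosen after seeing the data, Gm3776 ran from -0.045 without mutant culture 2 to 1.78 without control culture 1, Gclc was 0.067 with library size only, and Gclm was -0.100 with no filter, -0.0053 at Leiden resolution 0.5, and between -0.042 and 0.12 without 1 culture, below 0 without mutant culture 1, mutant culture 3 or control culture 2. In Mgat4c-led cells Gstm1 was -0.061 at Leiden resolution 1.2, -0.062 with library size only and between -0.099, without mutant culture 2, and 0.21 without 1 culture, and it passed at resolution 0.5 (0.91, adjusted p = 2.84e-04), where both enterocyte-like classes and the injury-like class formed 1 cluster, so that the Apoa1-led class had no value. The causes of the other changes were not tested. No paired analysis was possible between genotypes because mutant and control cultures share no number in the labels. Precision is limited by cell number in the enteroendocrine-like and injury-like classes, with 63 and 27 cells, and by depth in the shallow clusters.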
